A study of Gallus gallus with 53 samples.

Results

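Among the probe sets of a chicken B cell line, 152 were higher after stimulation of the B cell receptor (BCR) in cells with an inactive IKKβ kinase (IKKβSA) but stayed under a set limit in wild type cells. They were chosen from 26866 probe sets with a mean log2 intensity above 1.05, out of 38361 on the array. The IKKβSA change at 60 and 90 min, taken from the IKKβSA 0 min value on the log2 scale and averaged, had to be at least 0.7, and the largest wild type change at any time had to be below 0.5. A log2 change of 1 is a 2-fold change. The choice used measured values of 12 columns, namely the 0 min columns of both cell lines and their 5 columns each after 10 μg/ml anti-IgM, so values in these columns are described here without a test. The row IDs of the table do not pair with its values. No member is therefore given a gene name, and members are numbered by their IKKβSA change, highest first.

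The cells were DT40, and their RNA was hybridised to Affymetrix chicken arrays. Wild type cells (WT) were stimulated through the BCR with the anti-IgM antibody M4 (0.1, 1 or 10 μg/ml), or through CD40 with its ligand CD40L (1, 3 or 6 μg/ml). IKKβSA cells, a knock-in DT40 line in which the activating serines of IKKβ are replaced by alanine, were given anti-IgM at 10 μg/ml or CD40L at 6 μg/ml. Wild type cells pre-treated for 30 min with U0126, an inhibitor of the kinase MEK (WT + Inh), had the same doses as IKKβSA cells. The inhibitor is given at 5 mM in the sample labels and at 5 μM in the study's methods, whose wording leaves room for its use in IKKβSA cells too. A course had 1 column at each of 15, 30, 45, 60 and 90 min, and with 10 courses and 1 unstimulated 0 min column for WT, WT + Inh and IKKβSA cells the table has 53 columns. A column combined 2 biological replicates, so the table holds no spread between replicates. For late changes and slopes, the tests below take their spread from how far columns lie from the curve or line of their course. This spread was pooled over all 10 courses, including the 10 μg/ml anti-IgM courses that chose the members. For levels after CD40L it came from a fit of cell condition and time over 15 columns. Since unstimulated cells were sampled at 0 min only, drift over time and response cannot be told apart. The sources used here do not say how many clones the IKKβSA line stands for, and its difference from wild type cells cannot be told apart from a difference between cultures. The level of the altered kinase itself could not be read in any column, because the IDs do not pair with the values.

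Crosslinking of the BCR activates protein kinase C and the adaptor complex of CARMA1, BCL10 and MALT1, through which IKKβ is phosphorylated. Active IKKβ marks the inhibitor IκBα for degradation, and NF-κB then enters the nucleus and changes transcription. In parallel the BCR activates Ras, MEK and ERK, while CD40, a receptor of the TNF receptor family on B cells, reaches IKK through TRAF proteins.

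Most members were of moderate brightness. Their mean intensity (2 to the power of the mean log2 value) lay between 2.76 and 490.2 with a median of 20.7, against a median of 5.08 over all probe sets tested, and 42 members (27.6%) lay under 10, as did 61.8% of all tested. The column medians over the whole table lay between 2.74 and 2.95. The lowest was that of the WT 0 min column, from which every wild type change is taken, and the IKKβSA 0 min median was 2.90. From 15 to 90 min after 10 μg/ml anti-IgM the column median went from 2.93 to 2.79 in IKKβSA cells. It went from 2.91 to 2.8 in WT + Inh cells but from 2.85 to 2.93 in wild type cells, so the columns of these courses drifted in different directions. An IKKβSA change of at least 0.7 was reached by 496 of all tested probe sets (1.85%), of which 344 also passed the wild type limit of 0.5 and so were not members.

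In IKKβSA cells the members climbed through the course. The rule asked for a change at 60 and 90 min, so late timing is partly built into the choice. The median change was 0.13 at 15 min, 0.36 at 30 min, 0.57 at 45 min, 0.83 at 60 min and 0.85 at 90 min. In 88 members the value went up at every step from 0 to 60 min, and the share over all tested was not counted. The highest value was at 90 min in 91 members, at 60 min in 54 and earlier in 7. A change of 0.7 was first reached at 15 min by 4 members, at 30 min by 9, at 45 min by 32, at 60 min by 76 and at 90 min by 31. The mean change at 60 and 90 min lay between 0.70 and 1.19 with a median of 0.84, so 62 members stood within 0.1 of the threshold and only 19 reached 1. In wild type cells the medians at the same times were -0.01, 0.16, 0.15, 0.13 and 0.15. The largest wild type change lay between 0.3 and 0.5 in 84 members, between 0 and 0.3 in 60 and below 0 in 8.

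**Figure D1:**
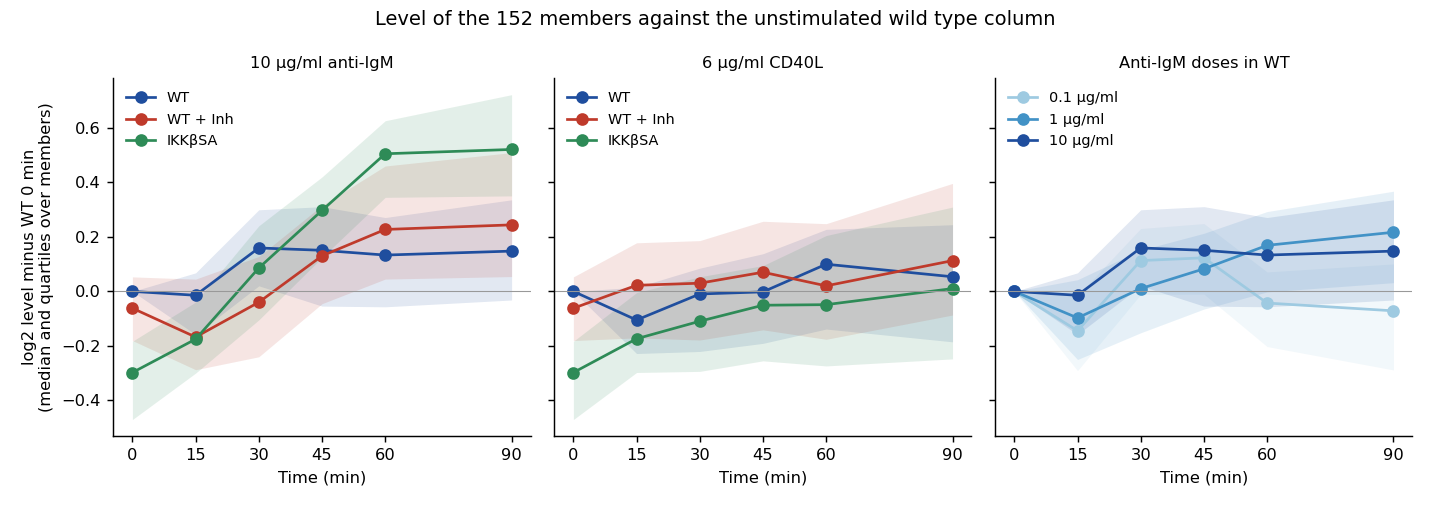
The plot gives the log2 level of the 152 members minus their level in the WT 0 min column against time in minutes, as the median (points) with quartiles (shading), for 10 μg/ml anti-IgM, for 6 μg/ml CD40L and for the anti-IgM doses in wild type cells. IKKβSA cells began at a median of -0.30, and their median stood above both other conditions from 45 min after anti-IgM. After CD40L their median stayed below that of wild type cells at every time. The fitted level difference over the CD40L times was small, with a median of -0.06 (median SE 0.07), and was above 0 in 53 members.

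Both thresholds lay within a continuous range. The 3 members nearest to the IKKβSA threshold from above had changes of 0.702, 0.702 and 0.704, and the nearest excluded probe sets lay at 0.6997, 0.6993 and 0.6990. The 3 members nearest to the wild type limit had largest wild type changes of 0.498, 0.498 and 0.496, against 0.503, 0.510 and 0.513 in the nearest excluded probe sets. The opposite pattern, a wild type change of at least 0.7 with no IKKβSA change of 0.5, was shown by 60 of the tested probe sets (0.223%), against the 152 members (0.566%). These counts start from unequal numbers, since 308 probe sets reached 0.7 in wild type cells and 496 in IKKβSA cells. Their 0 min columns also differed in median, at 2.74 and 2.90.

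Member 1 had the highest IKKβSA change and was dim. Its intensity in IKKβSA cells was 3.79, 4.77, 4.82, 5.58, 7.17 and 10.4 at 0, 15, 30, 45, 60 and 90 min after anti-IgM. In wild type cells it was 6.02, 5.12, 4.28, 4.43, 4.08 and 5.45 at these times. The IKKβSA course thus began below every value of the wild type course and ended above all of them. Member 2 was brighter, with 30.8, 32.2, 43.6, 60.3, 67.4 and 71.0 in IKKβSA cells. Its wild type intensities were 36.4, 35.7, 50.4, 49.1, 44.7 and 50.8, which is a rise just under the limit. In WT + Inh cells member 2 went through 33.2, 29.6, 43.0, 50, 54.2 and 59.2, between the other courses at 60 and 90 min.

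Member 3 parted from both wild type courses. Its IKKβSA intensities after anti-IgM were 23.2, 24.4, 26.1, 34.7, 47.1 and 57, and its wild type intensities were 25.2, 25.4, 24.9, 23.4, 26.2 and 28.1. The WT + Inh course gave 21.6, 15.1, 21.0, 23.1, 23.3 and 21.4, so the highest WT + Inh value lay below the lowest wild type value. After CD40L member 3 climbed in every kind of cell. It went through 23.2, 24.6, 28.0, 36.6, 43.3 and 62.0 in IKKβSA cells and 25.2, 25.2, 29.0, 34.7, 39.4 and 53 in wild type cells, and it ended at 58.7 in WT + Inh cells. Member 7 differed mainly at the start. It was at 9.49, 10.5, 12.4, 14.0, 17.4 and 24.2 in IKKβSA cells and at 18.3, 15.5, 14.4, 14.5, 13.9 and 21.7 in wild type cells, so that its IKKβSA values reached the wild type level only at 60 and 90 min.

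**Figure D2:**
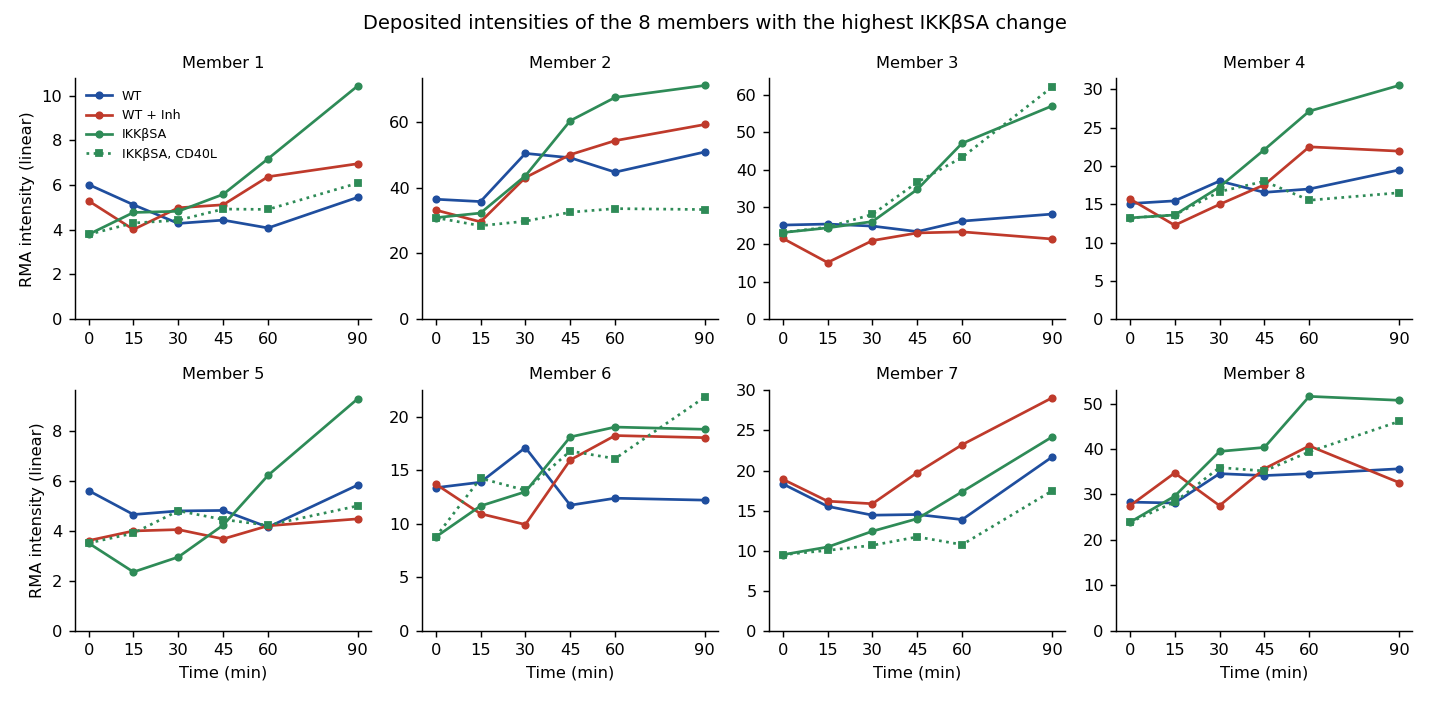
Deposited RMA intensities on a linear scale against time in minutes are drawn for members 1 to 8, 1 panel each, after 10 μg/ml anti-IgM in the 3 cell conditions (solid lines) and after 6 μg/ml CD40L in IKKβSA cells (dotted lines), each point being 1 column. The IKKβSA anti-IgM line ends above the wild type line in all 8 panels, and the dotted line reaches or passes it at 90 min in members 3 and 6.

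A lower level at 0 min was part of the pattern. Before stimulation the members were lower in IKKβSA cells, with a median IKKβSA minus wild type difference of -0.30 on the log2 scale (range -1.16 to 0.13), with 146 of 152 below 0, while the median over all tested probe sets was 0.03. The 0 min columns were used to choose the members, so no test was made. A low IKKβSA 0 min value by itself raises the change that the rule asked for. Shares of members that involve this column therefore exceed those of all tested partly by the choice, and the comparison decides nothing. A gap of -0.3 or lower was found in 75 members, against 9.34% of all tested. The IKKβSA 0 min value was the lowest of the 3 unstimulated columns in 120 members (78.9%), against 33.2% of all tested. It was also the lowest of the 11 IKKβSA columns in 80 members (background 8.74%), below all 5 IKKβSA columns after CD40L in 94 (background 20.6%) and below all 31 wild type columns in 70 (background 5.07%). The WT + Inh 0 min column lay -0.06 from wild type at the median, and it was the lowest of the 11 WT + Inh columns in 28 members (background 9.4%).

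The late IKKβSA level after anti-IgM was above the wild type level in most members. At 15 and 30 min after anti-IgM the IKKβSA level was still below the wild type level, with medians of -0.15 and -0.08, and it passed it at 45 min (0.13), 60 min (0.40) and 90 min (0.39). Averaged over 60 and 90 min, the IKKβSA level was the higher in 148 of 152 members, by a median of 0.39 (range -0.10 to 1.26). In 116 members both late IKKβSA values were above the WT 0 min value and all 5 values of the wild type course (background 13.7%), and in 66 they were above all 31 wild type columns (background 5.73%). The IKKβSA change exceeded the wild type change by a median of 0.75. In 58 members (38.2%) the gap at 0 min came to at least 0.5 of that excess, and in the others the level reached late made up the larger part. The late IKKβSA values and the gap at 0 min come from the columns that chose the members. These counts, set beside their backgrounds, therefore describe the pattern and support nothing further.

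**Figure D3:**
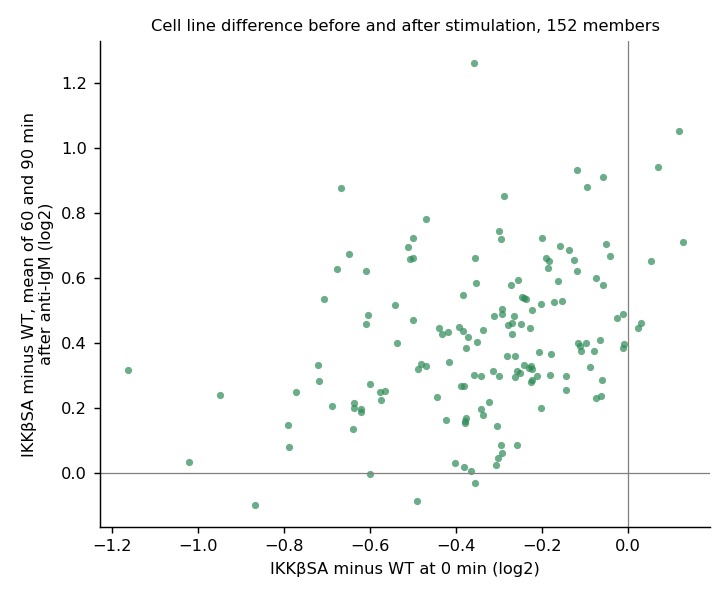
Each point is 1 of the 152 members, with the log2 difference IKKβSA minus WT at 0 min on the horizontal axis and the same difference averaged over 60 and 90 min after 10 μg/ml anti-IgM on the vertical axis. Points lie to the left of 0 for 146 members and above 0 for 148.

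The brightest members show how these parts combined. Member 132, with a mean intensity of 490.2, went through 375, 388, 439, 490.1, 578 and 662 in IKKβSA cells. In wild type cells it went through 464, 478, 492, 524, 541 and 579. The IKKβSA values lay below the wild type values up to 45 min and above them at 60 and 90 min. Member 140, with a mean intensity of 215, went through 143, 173, 179, 202, 235 and 235 in IKKβSA cells against 217, 223, 247, 224, 230.4 and 241 in wild type cells. Its late levels in the 2 cell lines overlapped, and its IKKβSA values after CD40L, 138, 145, 149, 154 and 163 from 15 to 90 min, stayed below every wild type value after the same ligand. Member 28, with a mean of 354, had the largest wild type change of all members, with 302, 340.0, 397, 427, 393 and 397 in wild type and 255, 314, 392.0, 429, 478 and 517 in IKKβSA cells.

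The WT + Inh cells, whose columns did not enter the choice beyond the mean level, also raised many of these members after anti-IgM. In 64 of 152 members (42.1%) the level at 60 and 90 min was higher than at 0 min, against 6.96% of all tested probe sets, and in 3 members it was lower (background 4.97%). Calls rest on limma fits with Benjamini-Hochberg adjusted p under 0.05 over all 26866 probe sets. The median fitted change was 0.33 (median SE 0.13), against -0.004 over all tested, and the estimate was above 0 in 132 members. Bright probe sets are called more often, and among the 11106 with a mean log2 intensity above 3 the shares were 14.4% of all and 47.9% of the 119 members. Of the 344 probe sets that rose in both cell lines, 280 (81.4%) were called higher in WT + Inh cells. The share of members lay between this and the share of all tested. The 344 were set apart by their wild type rise, and their late IKKβSA change was also larger, with a median of 1.09 against 0.84 in members. The place of the members between the groups therefore rests partly on the choice. Without the 90 min columns the late change is that at 60 min alone. It was then called in either direction in 38 members in place of 67 (background 11.9% in the full fit). For fits with columns left out, here and below, the share over all tested was not counted.

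The rise in WT + Inh cells was late. The medians from the WT + Inh 0 min column were -0.05, 0.03, 0.21, 0.32 and 0.31 at 15, 30, 45, 60 and 90 min, and 39 members had a mean late change of at least 0.5 (25.7%, background 2.66%). When only the stimulated columns were used, a slope per hour was fitted from 15 to 90 min, which leaves out the 0 min column. The slope was positive and called in 65 members (background 7.24%) and negative in 2 (background 3.07%), with a median of 0.33 per hour (median SE 0.14). Both tests called 44 of the members higher (28.9%, background 4.12%). The slope was positive and called in 197 (57.3%) of the 344 probe sets that rose in both cell lines, against 42.8% of members, and negative in 4. Without the 15 min columns the slope was called in either direction in 37 members in place of 67 (background 10.3% in the full fit).

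Member 19 had the highest WT + Inh change (1.39 as the mean of 60 and 90 min minus 0 min). It went through 5.71, 6.26, 8.39, 12.6, 14.5 and 15.3 in WT + Inh cells after anti-IgM, a fitted late change of 1.36 ± 0.17 (SE, limma adjusted p = 3e-07). In IKKβSA cells it went through 4.24, 6.08, 6.10, 6.91, 9.25 and 7.84, and wild type values stayed between 4.21 and 5.17. WT + Inh cells also raised it after CD40L, through 5.71, 11.4, 12.7, 14.8, 18.8 and 21.3, so that this member was highest in inhibitor-treated cells under both stimuli. The next highest unfitted late changes in WT + Inh cells were 0.86 in members 78 and 71 and 0.85 in member 72, with fitted changes of 0.98 ± 0.18, 0.80 ± 0.12 and 0.82 ± 0.16 (SE). Member 78 was low in unstimulated WT + Inh cells, with 12.7, 13.1, 18.4, 23.3, 22.9 and 23.2 there against 25.2, 23.5, 34.5, 31.4, 32.8 and 28.5 in wild type cells, and its late WT + Inh level stayed below the wild type level.

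Member 22 went the other way in WT + Inh cells. Its intensities were 10.8, 12.6, 8.95, 8.49, 8.54 and 6.58 there, a fitted late change of -0.65 ± 0.13 (SE, limma adjusted p = 4e-04). Wild type cells also ended low, at 15.8, 15.9, 17.7, 17.0, 12.2 and 8.38, while IKKβSA cells climbed through 12.3, 14.4, 17.9, 20.8, 24.3 and 24.1. At 90 min this member stood below its 0 min value in both wild type courses and above it in IKKβSA cells. The other members lowest in WT + Inh cells were dim, with mean intensities between 4.26 and 6.70, and of these member 147 was called lower (-0.50 ± 0.15, SE, limma adjusted p = 0.021).

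**Figure D4:**
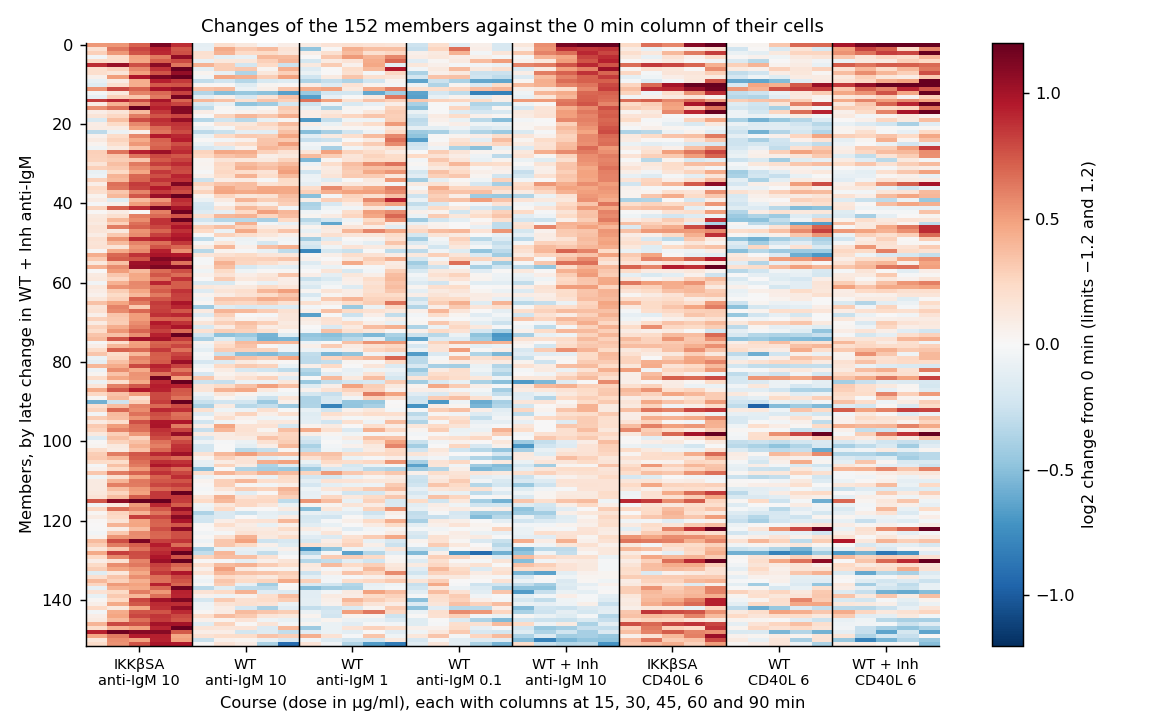
Each row is 1 of the 152 members and each column 1 array column of 8 courses at 15, 30, 45, 60 and 90 min, coloured by the log2 change from the 0 min column of the same cells, with colours saturating at -1.2 and 1.2. Rows are ordered by the late WT + Inh change after anti-IgM, which ran from 1.39 to -0.52, while the IKKβSA anti-IgM block is red at 60 and 90 min in every row by the choice of members.

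The lower anti-IgM doses in wild type cells were compared next. These courses share the WT 0 min column with the choice of members, so they were tested by the slope over the stimulated columns. At 1 μg/ml the slope was positive and called in 45 members (29.6%, background 7.69%) and negative in 1, member 22 (background 4.29%, or 12% in either direction), with a median of 0.22 per hour. At 0.1 μg/ml 10 members had a positive slope (background 1.94%) and 9 a negative one (background 4.94%), with a median of -0.02 per hour. The count at 0.1 μg/ml, 19 in either direction (background 6.88%), was 1 in a fit of that course alone. It was 30 without the 15 min columns, 3 positive and 27 negative, and 7 without the 90 min columns, all positive. The median changes of members from 0 min were -0.14, 0.11, 0.12, -0.04 and -0.07 at 15, 30, 45, 60 and 90 min. A straight line does not describe such a course, which limits its slope and the slope difference between doses given below. Among the bright probe sets the shares with a positive slope were 29.4% of members and 15.5% of all at 1 μg/ml, and 8.4% and 3.39% at 0.1 μg/ml. The 344 probe sets that rose in both cell lines were set apart from members by their wild type change at 10 μg/ml anti-IgM. More positive wild type slopes among them than among members are therefore partly built into the choice. Positive slopes were called in 227 of the 344 (66%) at 1 μg/ml and in 100 (29.1%) at 0.1 μg/ml, with negative slopes in 15 and 20.

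The slopes at 1 and 0.1 μg/ml were then set against each other, a test chosen after the data were seen. The slope was steeper at 1 μg/ml in 3 members (background 0.13%) and in no member at 0.1 μg/ml (background 0.0335%, or 0.164% in either direction), with a median difference of 0.26 per hour and 136 of 152 estimates above 0 (89.5%, against 55.3% of all tested). At an unadjusted p under 0.05, 46 members differed (30.3%, background 12.7%). The difference was not particular to the members. Of the 344 probe sets that rose in both cell lines, 14 (4.07%, against 1.97% of members) were called steeper at 1 μg/ml, with a median difference of 0.39 per hour. The 3 members were members 10, 25 and 132, which were named after their values were seen. Member 10 went through 10.9, 12.1, 12.8, 13 and 18.4 at 1 μg/ml and 11.2, 13.1, 14.0, 11.5 and 10.5 at 0.1 μg/ml from 15 to 90 min, so that the courses parted at 60 min. Its slopes differed by 0.71 ± 0.15 per hour (SE, limma adjusted p = 0.0307). Member 132 went through 405, 474, 494, 546 and 540.0 at 1 μg/ml and 491, 515, 496, 497 and 491 at 0.1 μg/ml, with a difference of 0.34 ± 0.07 per hour (SE, limma adjusted p = 0.0307). None of the 3 was called when only these courses were fitted, and with single times left out the count was 6 without 15 min, 1 without 45 or 60 min and 0 without 30 or 90 min. At 60 and 90 min the highest of the 3 wild type anti-IgM doses was 1 μg/ml in 81 and 84 members. The 10 μg/ml course was limited by the choice of members, and the share over all tested was not counted. These counts are therefore not read as a dose pattern.

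The CD40L courses were tested by the same slope. In IKKβSA cells given 6 μg/ml CD40L the slope was positive and called in 26 members (17.1%, background 0.938%) and negative in 2 (background 0.856%), with a median of 0.14 per hour. Among bright probe sets 20.2% of members and 2% of all had a positive slope. Of the 344 probe sets that rose in both cell lines after anti-IgM, 22 (6.4%) had one. In wild type cells at 1, 3 and 6 μg/ml CD40L 3.2%, 11.9% and 13.1% of these 344 had a positive slope. The shares of members were 8.55%, 15.1% and 12.5%. In WT + Inh cells the shares were 4.94% of the 344 and 9.87% of members. In IKKβSA cells after CD40L, 11 members were called in either direction without the 90 min columns, in place of 28 (background 1.79% in the full fit). In wild type cells positive slopes were called in 13 members at 1 μg/ml (background 1.48%), 23 at 3 μg/ml (background 3.4%) and 19 at 6 μg/ml (background 1.18%), with negative slopes in 0, 2 and 1 (background 0.29%, 1.16% and 1.08%, or 1.77%, 4.56% and 2.25% in either direction). In WT + Inh cells 15 members had a positive slope (background 1.34%) and none a negative one (background 1.22%, or 2.56% in either direction). Without the 90 min columns the counts in either direction were 5, 8 and 12 in wild type cells at the 3 rising doses and 8 in WT + Inh cells, in place of 13, 25, 20 and 15. The count at 1 μg/ml was also 6 without 15 min and 5 without 30 min, and that at 3 μg/ml was 16 without 15, 30 or 60 min. The slope difference between IKKβSA and wild type cells after CD40L was called by limma in 0 members (background 0.0261%), with 7 at an unadjusted p under 0.05 (4.61%, background 3.87%), a median difference of 0.04 per hour and a median SE of 0.19.

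Taken from 0 min, the late level of 41 members was higher by at least 0.5 in the IKKβSA CD40L course (background 1.44%). That course shares the IKKβSA 0 min column with the choice of members, and its median late change was 0.34 from 0 min but 0.15 from the 15 min column. The WT + Inh CD40L course has its own 0 min column, and there the late level was higher in 37 members (24.3%, background 6.35%) and lower in 4 (background 4.25%) with a median fitted change of 0.12 (median SE 0.13). Of the 344 probe sets that rose in both cell lines after anti-IgM, 83 (24.1%) were higher and 20 lower there. Without the 90 min columns 18 members were called in either direction in place of 41 (background 10.6% in the full fit).

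**Figure D5:**
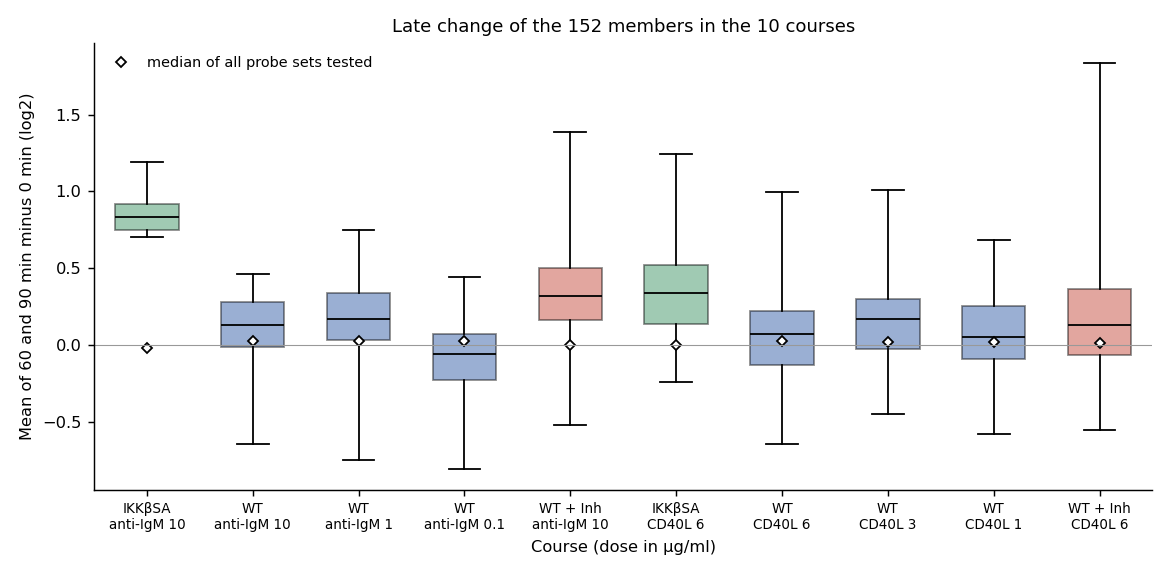
Boxes show the log2 change (mean of 60 and 90 min minus 0 min) of the 152 members in each of the 10 courses, with the median, quartiles and whiskers to the lowest and highest member, and diamonds show the median of all tested probe sets. Outside the IKKβSA and wild type 10 μg/ml anti-IgM courses that chose them, the medians lay between -0.06 (wild type, 0.1 μg/ml anti-IgM) and 0.34 (IKKβSA, CD40L), and single members reached 1.84 in WT + Inh cells after CD40L. Changes in wild type and IKKβSA cells are taken from 0 min columns that the choice also used.

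Some members rose after CD40L in every cell condition. Member 33, the fourth brightest with a mean intensity of 199.8, went through 152, 165, 194, 245, 303 and 416 in IKKβSA, 166, 163, 191, 242, 289 and 377 in wild type and 139.7, 137, 172, 219, 256 and 327 in WT + Inh cells after CD40L. After anti-IgM it rose in IKKβSA cells through 152, 165, 186, 219, 272 and 316, while wild type values ran from 166 to 198 and WT + Inh values from 136 to 166. Its CD40L slope per hour was 1.09 ± 0.07 in IKKβSA, 0.99 ± 0.07 in wild type and 1.00 ± 0.07 in WT + Inh cells (SE, limma adjusted p = 7.5e-16, 2.8e-14 and 2.2e-14). Member 3 was also called in all 3, with CD40L slopes of 1.09 ± 0.11, 0.86 ± 0.11 and 1.14 ± 0.11 in the same order of cells. Member 28 rose after CD40L in IKKβSA (0.51 ± 0.09 per hour, SE) and wild type cells (0.41 ± 0.09) but its slope was 0.03 ± 0.09 in WT + Inh cells, where its 0 min value of 414 was the highest of the 3 unstimulated columns. The difference between these slopes was not tested.

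Between 15 and 90 min after CD40L the median level difference of members between IKKβSA and wild type cells was small. Single members differed by -0.55 to 0.73, and 35 (23%, background 11.9%) were called different. The level over the 5 times differed by a median of -0.06 (median SE 0.07), with 6 members called higher (background 5.79%, or 11.9% in either direction) and 29 lower (background 6.07%) in IKKβSA cells. Among bright probe sets 22.7% of members and 12.6% of all were lower. Of the 344 probe sets that rose in both cell lines after anti-IgM, 12 were called higher and 157 lower in IKKβSA cells. The 5 columns of a course are times and not replicates, so these tests treat a cell difference that is steady over time as a difference between 1 course and another. The median gap was -0.06 in these columns and -0.30 at 0 min. The 0 min columns were used to choose the members, and the choice by itself favours a low IKKβSA value there. These gaps are therefore not read as a change after CD40L. WT + Inh cells were higher than wild type cells in 51 members (background 16.5%, or 24.6% in either direction) and lower in 21 (background 8.12%), with a median of 0.11, and the share of bright members that were higher, 35.3%, was near the 32.3% of all bright probe sets.

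Over the 41 columns not used for the changes, the median pairwise correlation was 0.25 between members, -0.003 over all pairs of tested probe sets and 0.51 between the 344 probe sets that rose in both cell lines, where all points share normalisation and many share a course. A positive slope was called both in WT + Inh cells after 10 μg/ml anti-IgM and in wild type cells at 1 μg/ml in 34 members (22.4%, background 3.59%). Positive slopes in WT + Inh cells after anti-IgM and in IKKβSA cells after CD40L were shared by 12 members (7.89%, background 0.234%), and those in wild type cells at 1 μg/ml and in IKKβSA cells after CD40L by 2 (1.32%, background 0.186%). No late change or slope was called higher in 43 members (28.3%), against 81.2% of all tested, and none was called in either direction in 36 (23.7%), against 69.3%.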

How the data were processed

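The authors deposited 1 table of RMA intensity values on a linear scale (38361 probe sets, 53 columns). RMA is named in the submitters' processing notes without a version, and how the 2 biological replicates of a column were combined is not stated. RMA draws columns together, so a shift shared by most probe sets could be removed in part. The deposited column medians still differed, from 2.74 to 2.95, and centring columns on their medians gave 241 members in place of 152. With 1 column per condition and time, the number of columns limits the precision.

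Values were taken to log2 without a pseudocount. R 4.3.3 with limma 3.58.1 (lmFit and eBayes with an intensity trend) was run on all 26866 probe sets whose mean log2 value exceeded 1.05, and p-values were adjusted by Benjamini-Hochberg over all of them. Late changes came from a natural cubic spline of time per course (knots at 25 and 50 min) over all 53 columns, with 20 residual degrees of freedom. Slopes came from a straight line per course over the 50 stimulated columns (30 residual degrees of freedom), and levels after CD40L from cell condition and time as factors over 15 columns (8 residual degrees of freedom). The late change, slope, CD40L slope difference and level fits were also run on simulated data, but the slope difference between anti-IgM doses was not. The simulated noise was independent between columns, which columns of a real course need not be, so that run does not bear on the calls here.

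The members and the lists were chosen with earlier results of these data known. Values were given for the 8 members with the highest IKKβSA change, the 4 with the highest mean level, members among the 4 highest and 4 lowest in WT + Inh cells, and the 3 probe sets on each side of each threshold. Under the IDs of 672 probe sets that the study selected for their response, the largest WT change after 10 μg/ml anti-IgM had a median of 0.15, as over all rows (0.15), so IDs were not used and lists of named genes were left out. Alternatives were other filters, centring of columns, other reference columns and limits, fits of fewer columns and each time left out in turn.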

Additional observations from a re-analysis of the deposited data

Results flagged for a closer look

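One difference between courses of the same contrast passed a test. The slope from 15 to 90 min in wild type cells was steeper after the 1 than after the 0.1 μg/ml dose of anti-IgM in 3 of 152 members (limma, adjusted over all 26866 probe sets), against 0.13% of all tested (0.164% differed in either direction), with 136 of 152 estimates above 0 (89.5%, against 55.3% of all tested) and a median difference of 0.26 per hour. The comparison was chosen after the data were seen. The 3 members were called in neither the fit of these courses alone nor the fits without the 30 or the 90 min columns.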

How the results depend on the processing

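The rule gave 152 members. It gave 241 when columns were centred on their medians, which included all 152, 68 with a wild type limit of 0.3 and 19 with an IKKβSA threshold of 1. Against the 15 min columns in place of 0 min it gave 127, of which 61 were members. It gave 153 without the level filter, 119 with a mean log2 level above 3, 166 at 60 min only and 192 at 90 min only.

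Of 136 alternative counts, 109 lay within 1.5 times the reported count. They include 9 for the CD40L slope difference, which was called in 0 members in every fit. The tally compares counts and not which probe sets they hold. With columns centred on their medians, the late WT + Inh change after anti-IgM was called in 61 members in place of 67. The slope of that course was then called in 71 in place of 67. In fits of only the courses compared, 1 member in place of 19 was called at 0.1 μg/ml anti-IgM, 20 in place of 13 at 1 μg/ml CD40L, 32 in place of 20 at 6 μg/ml CD40L in wild type cells, and 0 in place of 3 in the difference between 1 and 0.1 μg/ml anti-IgM. When each time was left out in turn, the late change was called in 38 to 69 members in WT + Inh cells after anti-IgM and in 18 to 43 after CD40L, each lowest without 90 min. The slope was called in 7 to 30 members at 0.1 μg/ml anti-IgM, in 37 to 63 in WT + Inh cells after anti-IgM, in 11 to 26 in IKKβSA cells after CD40L, in 5 to 9, 8 to 24 and 12 to 16 in wild type cells at 1, 3 and 6 μg/ml CD40L, in 8 to 16 in WT + Inh cells after CD40L, and in 0 to 6 for the difference between anti-IgM doses. The cause was not tested, and the shares over all probe sets were not counted for these alternatives. The slope at 1 μg/ml anti-IgM, the CD40L slope difference and both CD40L level differences stayed within 1.5 times under every alternative tried.

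No paired analysis was possible because the columns carry no replicate numbers and combine their replicates. The level of dim members, 42 of them under an intensity of 10, limits their changes.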
